A study of Mus musculus with 19 samples.

Results

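The genes described here encode proteins of synaptic vesicles and of the machinery that fuses vesicles with membranes. They were chosen by symbol alone, as the protein-coding genes named Syt followed by a number (synaptotagmins), Syn1 to Syn3 (synapsins), Sv2a to Sv2c (synaptic vesicle glycoproteins), Cplx1 to Cplx4 (complexins), Stx with a number (syntaxins), Vamp with a number (synaptobrevins and their relatives) and Snap23, Snap25, Snap29, Snap47 or Snap91. Of 41388 genes counted in each RNA-seq library, 54 met this rule: 17 Syt, 3 Syn, 3 Sv2, 4 Cplx, 15 Stx, 7 Vamp and 5 Snap genes. The rule itself uses no expression value, but the members, gene lists and tests were chosen with earlier results of these data known.

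RNA-seq was carried out on whole brains of mouse embryos at 13.5 days post coitum (E13.5) and on cerebellums of adult males at 56 days post partum, from animals with 2 intact copies of Wiz (Wiz +/+) or with 1 intact copy (Wiz MommeD30/+). Wiz encodes a zinc finger protein found with the histone methyltransferases G9a and GLP, and MommeD30 is a null allele, a single base pair deletion induced by the mutagen ENU that shifts the reading frame. There were 3 brains of each genotype from male embryos, 2 of each genotype from female embryos and 3 cerebellums of each genotype, each from 1 animal. The question put to these samples was which genes depend on the dose of Wiz. The labels give the strain of every sample as FVB. The MommeD30 line was made and kept on an inbred FVB/NJ strain homozygous for a multicopy GFP reporter transgene driven by human alpha-globin promoter sequences, and the embryos came from crosses between heterozygotes. The adult samples were cerebellum and the embryonic samples whole brain, so tissue and age cannot be told apart. The same holds for any library batch that differed between them.

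A neurotransmitter-filled vesicle fuses when a vesicle SNARE (Vamp1 or Vamp2) zippers with the plasma membrane SNAREs of the syntaxin and SNAP-25 kinds. Complexins hold this complex ready and synaptotagmins trigger it when calcium enters, while synapsins tether the reserve of vesicles and SV2 proteins span the vesicle membrane. Most other syntaxins, Vamp and Snap proteins serve fusion between the endoplasmic reticulum, Golgi, endosomes, lysosomes and plasma membrane in every cell. In the cerebellum the excitatory granule cells and the inhibitory Purkinje cells are the best known users of the first set.

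Between 16386029 and 50459755 reads were counted on genes in each library. The smallest library was the second Wiz +/+ male brain, and the next smallest held 28365687. Wiz itself had 173 to 189.9 CPM (counts relative to the library total, TMM-scaled over all 16 libraries) in Wiz +/+ male brains and 112 to 119 in heterozygotes, 176 to 184 and 119.9 to 122 CPM in female brains, and 104 to 105 and 73.1 to 74.7 CPM in cerebellum. No library overlapped with those of the other genotype in its tissue and sex. Adult granule cell markers (6 of 6 genes, among them Gabra6 and Cbln3) and Purkinje cell markers (4 of 4, Pcp2 and Calb1 among them) were called higher in cerebellum, whereas 6 of 7 neural progenitor and 3 of 3 forebrain markers were called lower. The first Wiz +/+ cerebellum held pituitary transcripts (Gh, Prl and Pomc summed to 50.8 CPM against at most 2.47 in every other library), and the second Wiz MommeD30/+ cerebellum held less of the choroid plexus transcripts Ttr and Folr1 (971 CPM against 1785 to 2084 in the other 5).

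Transcripts of all but 4 members were abundant enough for a test between cerebellum and embryonic brain. Syt8 had 5 counts in all 16 libraries and Cplx4 had 9, Stx19 had 113, and Vamp7 had none. In the annotation used here Vamp7, a SNARE of lysosomes and late endosomes, lies on a sequence not placed on a chromosome, and all 86 genes on such sequences were listed at 0 in every library, so its zero says nothing about its expression. Together the 54 genes took 0.334% to 0.358% of all counts in Wiz +/+ male E13.5 brains and 1.13% in each Wiz +/+ cerebellum. In cells mixed as in these tissues, a change in the number of cells of a type and a change in RNA per cell cannot be told apart.

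Levels of different genes were compared per kb of exon. In Wiz +/+ male E13.5 brain the highest was Syt11, a synaptotagmin of vesicle recycling that does not bind calcium, with 62.8 ± 0.545 CPM per kb (SD, n = 3). It was followed by Vamp2, the main vesicle SNARE of the brain (55.0 ± 2.56), and by Snap47 (54.8 ± 2.28), a widely expressed SNAP-25 relative, whose ranges overlapped. The endosomal syntaxin Stx12 (49.2 ± 1.72) and Syt4 (43.0 ± 3.0) came next. In Wiz +/+ cerebellum the order was led by Snap25 (330.0 ± 12.9) and the complexin Cplx1 (317 ± 11.3), which overlapped with each other and then by Vamp2 (219.9 ± 1.01), which stood apart from both. Cplx2 (185 ± 3.11) was in the 5th place. Syn1 (94.3 ± 2.24) and Syt2 (92.3 ± 2.51) overlapped at the 8th and 9th places. Syt2 had ranked 42nd of the members in embryonic brain and Vamp1 40th, against 20th for Vamp1 in cerebellum. Stx1a, a plasma membrane syntaxin, went the other way, from 13th to 41st. Syntaxins made up 28.1% of the members' summed level in Wiz +/+ male brain and 14.4% in cerebellum, while complexins made up 7.18% and 20.0%.

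**Figure D1:**
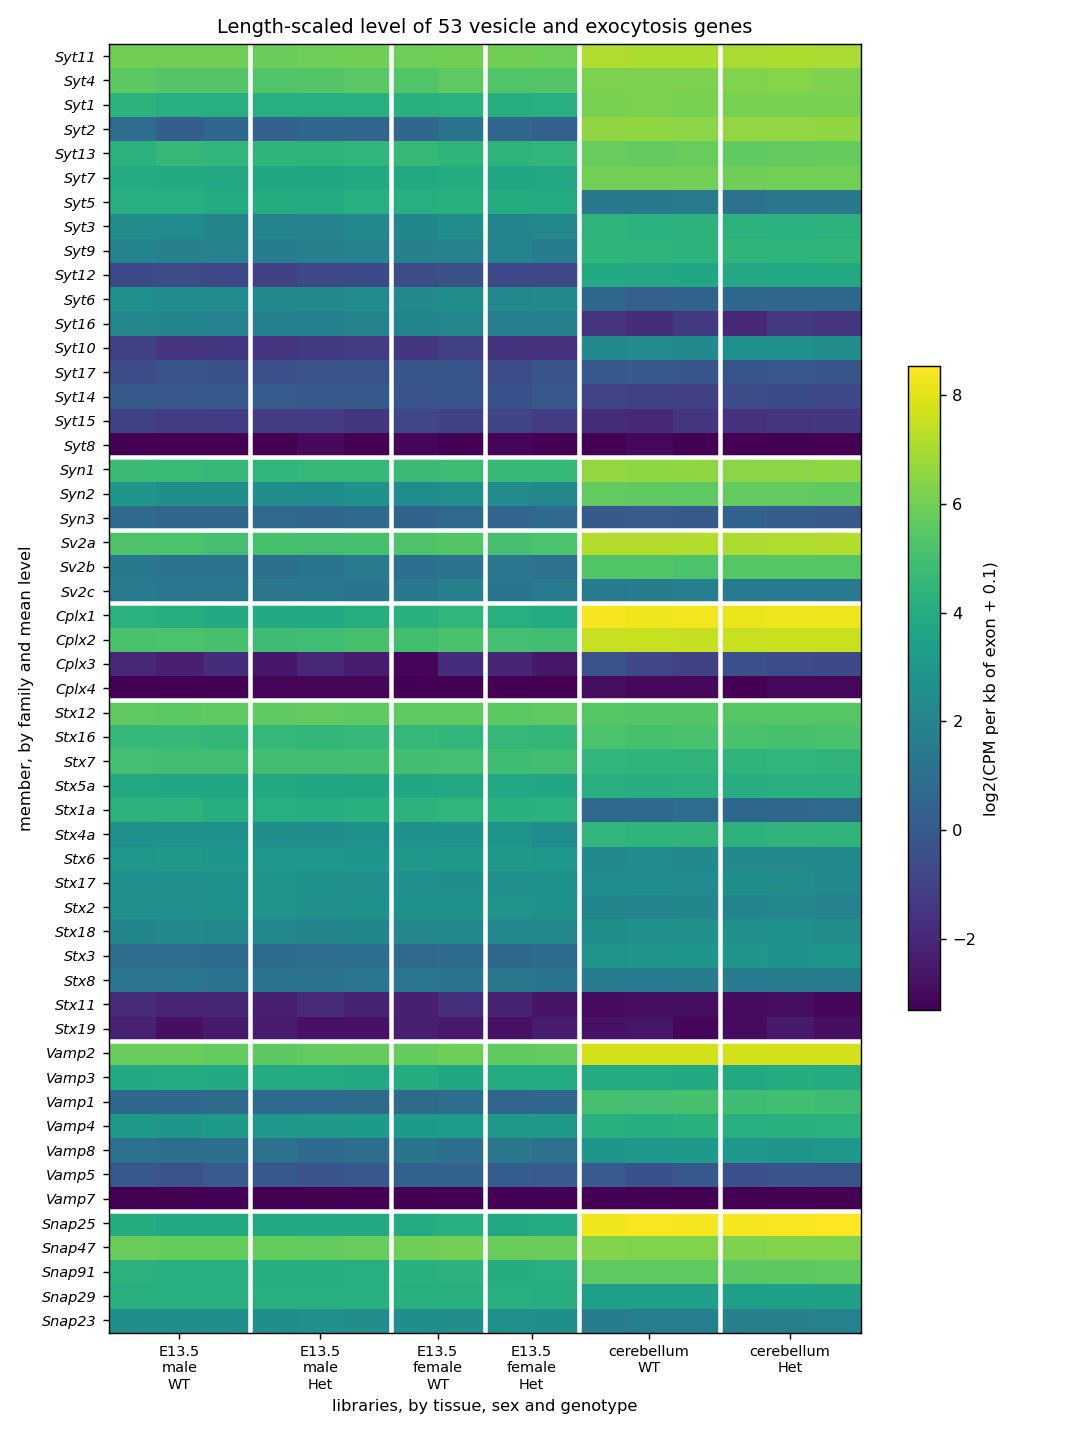
Level of 53 of the 54 genes (rows, grouped by family and ordered by mean level) in each of the 16 libraries (columns, grouped by tissue, sex and genotype, where WT is Wiz +/+ and Het is Wiz MommeD30/+), as log2 of CPM per kb of exon with 0.1 added. Snap25, Cplx1 and Syt2 are brighter in all 6 cerebellums than in any of the 10 embryonic brains, and Syt5, Syt16 and Stx1a are darker.

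Cerebellum was first compared with male E13.5 brain in Wiz +/+ animals (3 against 3) by edgeR's quasi-likelihood test, with p-values adjusted by Benjamini-Hochberg over the 16840 genes tested and a gene called where it changed by 2-fold or more with an adjusted p up to 0.05. Syt2, Syt12 and Snap25 rose the most, and Syt16 and Stx1a fell the most. Of the 50 members tested, 25 were called higher in cerebellum and 6 lower. Over all genes tested, 22.6% were called higher and 21.5% lower. The median log2 fold change (cerebellum over E13.5 brain) was 0.92 for the members and -0.015 for all genes. Of 16 genes of the presynaptic fusion core (among them Syt1, Syt2, Syt9, Vamp1, Vamp2, Stx1a, Snap25, Cplx1, Cplx2 and all Syn and Sv2 genes), 13 were called higher and 1 lower, with a median of 2.44, whereas of 14 tested SNAREs of general trafficking 2 were called higher and none lower, with a median of 0.17. The groups were set with earlier results of these data known, and the plasma membrane syntaxins Stx3 and Stx4a, both called higher, are in neither. Whether the groups differ was not tested. In heterozygous animals, which share no sample with this comparison, 25 members were called higher and 5 lower (22.4% and 21.7% of all genes), with a median of 1.03. Total-count scaling moved the median of all genes by -0.21 and upper quartile scaling by -0.11. With these scalings 23 and 24 members were called higher and 8 and 6 lower. Over all genes, 3227 and 3496 were called higher with them and 4377 and 3980 lower, against 3804 and 3618 in the fit reported.

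**Figure D2:**
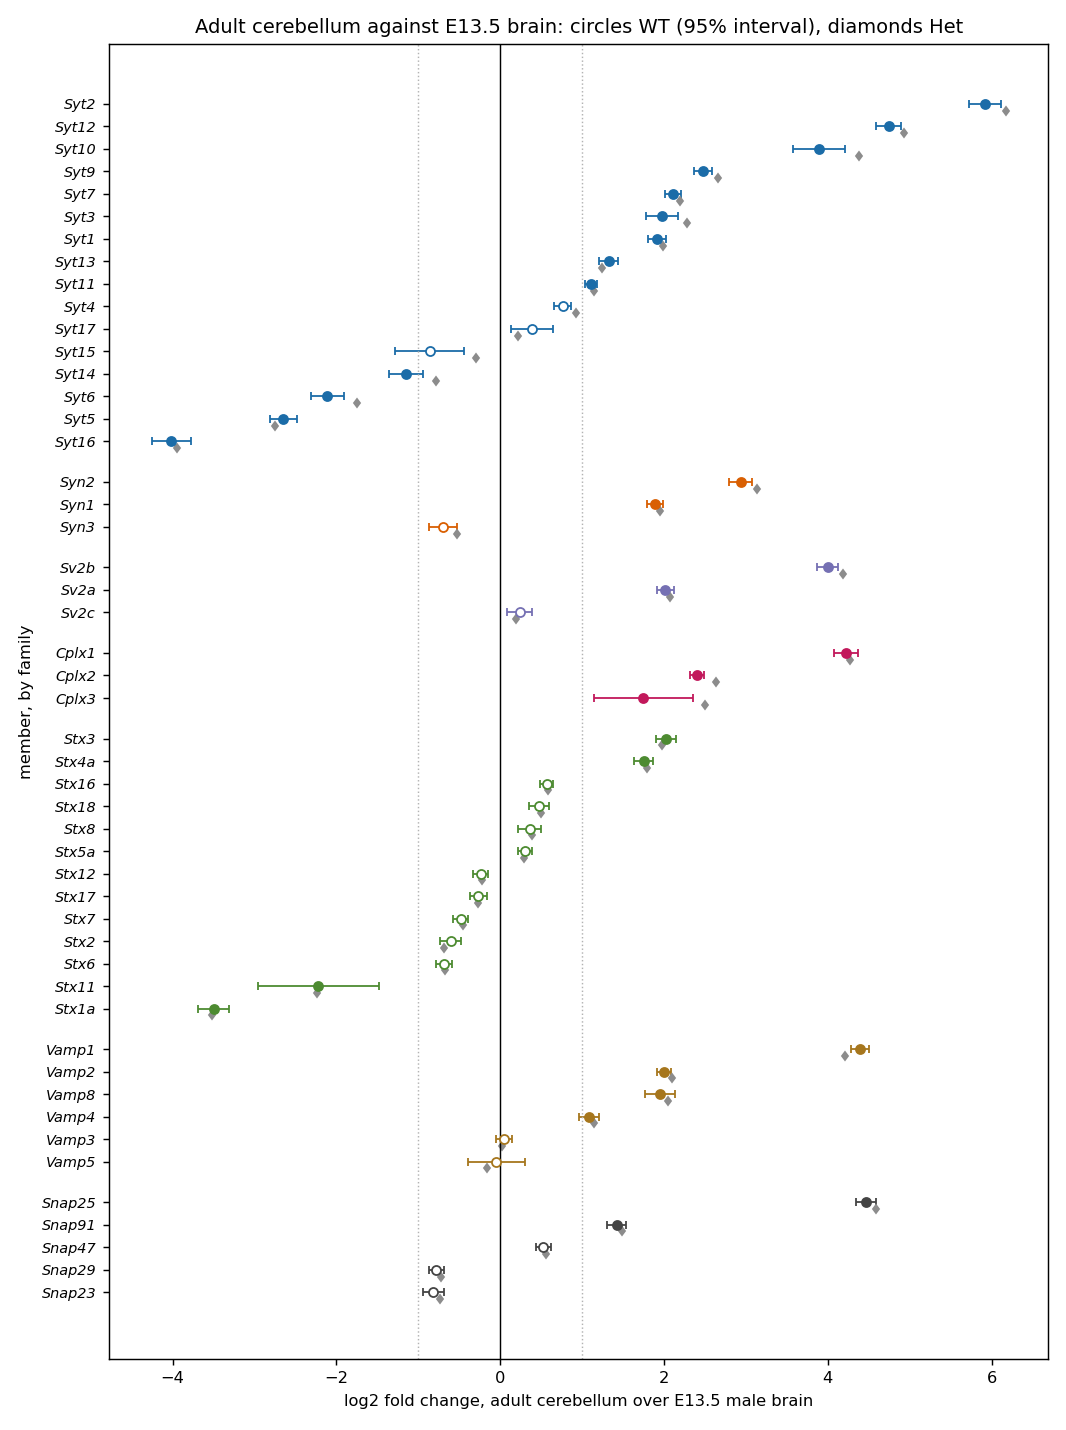
Log2 fold change of 49 of the 50 tested members, adult cerebellum over male E13.5 brain, by family. Circles with bars are Wiz +/+ samples (3 against 3) with 95% intervals, filled where called, diamonds are Wiz MommeD30/+ samples (3 against 3), and dotted lines mark 2-fold. Values run from -4.01 for Syt16 to 5.92 for Syt2, and most general trafficking SNAREs lie between the dotted lines.

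Synaptotagmins moved in both directions, with 9 called higher and 4 lower of 16 tested. Syt2, a fast calcium sensor known for hindbrain and spinal synapses, had 13.4, 8.45 and 11.2 CPM in the 3 Wiz +/+ male brains, 11.3 and 17.6 in the 2 female ones and 714, 718 and 683 in the 3 Wiz +/+ cerebellums. It rose 60.5-fold (log2 5.92 ± 0.092 SE, adjusted p = 4.3e-17), the largest rise of any member, and its lowest cerebellum was far above its highest embryonic brain. Syt1, the calcium sensor of forebrain synapses, rose less, from 170.4, 150.0 and 149.6 CPM to 582, 607 and 585 (log2 1.91 ± 0.053). Syt9, the third fast sensor, had a log2 fold change of 2.47 and Syt7, the sensor of slow release, 2.11. Syt12 was low in the embryo, at 2.92, 3.24 and 2.78 CPM, and had 82.8, 77.3 and 75.5 CPM in cerebellum (4.74 ± 0.069). Syt10 had less than 1 CPM in the Wiz +/+ male brains and 8.92, 9.68 and 9.03 in cerebellum (3.89 ± 0.15). Syt11 (1.11), Syt13 (1.32) and Syt3 (1.98) also rose, and the call of Syt11 was lost when libraries were scaled by total counts (0.90).

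The 4 synaptotagmins that fell were Syt16, Syt5, Syt6 and Syt14. Syt16, which lacks calcium binding, had 39.9, 36.8 and 34.4 CPM in Wiz +/+ male brains and 2.31, 1.74 and 2.82 in cerebellums, a log2 fold change of -4.01 ± 0.11 (adjusted p = 3.3e-14). Syt5, a calcium-binding form also found on dense core vesicles, went from 42.7, 42.2 and 37.4 CPM to 6.28, 6.30 and 6.89 (-2.65 ± 0.076), and Syt6 from 35.5, 29.9 and 30.6 to 8.41, 6.56 and 7.46 (-2.11 ± 0.093). For all 3 the groups were far apart. Syt14 fell by less (-1.15 ± 0.10), and in heterozygous animals its fold change of -0.78 did not reach 2-fold. Syt4 (0.76), Syt17 (0.39) and Syt15 (-0.86) had adjusted p-values under 0.05 but changed by less than 2-fold.

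The 3 kinds of SNARE that make up the synaptic fusion complex rose together, with the exception of Stx1a. Snap25 (ENSMUSG00000027273, chr2:136713453-136782428, plus strand, GRCm38), the plasma membrane partner that gives a pair of helices, had 108, 95.8 and 99.5 CPM in Wiz +/+ male brains and 2140.4, 2301 and 2281 in cerebellums, a 22.1-fold rise (log2 4.46 ± 0.058, adjusted p = 7.3e-18). Vamp1, the vesicle SNARE of hindbrain and motor neurons, went from 15.4, 15.2 and 16.6 CPM to 336, 318 and 339, a log2 fold change of 4.39 ± 0.05. Vamp2 went from 215, 216 and 198 to 842, 835 and 836 CPM and rose 4.0-fold. In each of these genes every cerebellum was above every embryonic brain.

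Stx1a (ENSMUSG00000007207, chr5:135023482-135051100, plus strand), a syntaxin that can serve in the synaptic complex, went the other way from most of the core. It had 52.7, 53.6 and 44.8 CPM in Wiz +/+ male brains, 53.7 and 59.8 in female brains and 4.30, 4.26 and 4.75 in cerebellums, and it fell with a log2 fold change of -3.50 ± 0.088 (adjusted p = 8.9e-15). Every cerebellum was below every embryonic brain. Stx1a was the only fusion core gene called lower in cerebellum, and the heterozygous animals gave -3.52 for it. The plasma membrane syntaxin Stx4a had 14.4, 15.6 and 15.4 CPM in male embryonic brain and 52.3, 48.7 and 50.7 in cerebellum.

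Complexins, synapsins and SV2 genes, which act beside the SNAREs, rose to different extents or not at all. Cplx1 rose from 41.7, 36.0 and 33.1 CPM in Wiz +/+ male brains to 721, 672 and 693 in cerebellums (log2 4.22 ± 0.07), and Cplx2 from 174, 176 and 167 to 918, 921 and 893 (2.40 ± 0.039). Both complexins were among the 5 highest members in cerebellum. Cplx3, best known from retinal ribbon synapses, was called higher (1.75 ± 0.28) but had between 0.0398 and 2.09 CPM over all libraries. Sv2a, the binding site of the drug levetiracetam, went from 175, 166 and 153 CPM to 672, 659 and 663 (2.01 ± 0.048), and Sv2b from 22.1, 18.9 and 19.3 to 332, 337 and 306 (4.0 ± 0.062). Sv2c, a form of basal ganglia and some brainstem neurons, changed by only 0.24 ± 0.071 and was not called.

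Syn1 and Syn2 rose and Syn3 did not. Syn1 had 88.6, 84.4 and 78.3 CPM in Wiz +/+ male brains and 318, 303 and 313 in cerebellums (log2 1.89 ± 0.047), and Syn2 went from 50.8, 41.9 and 41.9 to 357, 349.9 and 334 (2.94 ± 0.066). Syn3, the synapsin of early development, went from 20.6, 17.7 and 17.4 to 11.5, 11.8 and 11.4 CPM, a lower level in every cerebellum, with a log2 fold change of -0.70 ± 0.081 that did not reach 2-fold. Of its exon bases 14.1% also lie in Timp3 on the opposite strand. The promoters of the members were searched for short sequence motifs on both strands. That of Syn1, the highest synapsin per kb in both tissues, is shown because it alone held a full cyclic AMP response element, TGACGTCA, given in capitals. It is the RefSeq window of GRCm38.p6 at chrX:20920869-20921168 (read 5′ to 3′ on the gene's strand, which is the minus strand, from 250 bases before to 50 after the start).
Syn1 promoter: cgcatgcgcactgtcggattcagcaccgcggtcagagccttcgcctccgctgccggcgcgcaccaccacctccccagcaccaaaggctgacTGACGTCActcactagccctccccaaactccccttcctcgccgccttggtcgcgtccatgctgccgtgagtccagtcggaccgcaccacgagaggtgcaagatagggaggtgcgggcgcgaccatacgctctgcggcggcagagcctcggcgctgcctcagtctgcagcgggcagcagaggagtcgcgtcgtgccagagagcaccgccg
Windows were at hand for 41 of the 54 genes (56 windows), and the element of Syn1 lies in 1.79% of all 32851 windows. 

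The repressor element RE1, spelled here as TTCAGCACC, 2 free bases and then GGACAG, is bound by REST in cells that are not neurons. No member's window held all of its 15 named letters on either strand, as did 0.0122% of all windows. With up to 3 letters different, matches lay in the windows of Syn1, Syt2 and Syt6 (1.17% of all windows, and 5.36% of the members'), and they are shown because Syt2 and Syn1 rose and Syt6 fell. Capitals mark the letters shared with the motif, read in its direction, which in Syt6 is opposite to that of the gene.
Syn1, chrX:20921134-20921150: TTCAGCACCgcGGtCAG
Syt2, chr1:134646488-134646504: cTgcGCACCgaGGACAG
Syt6, chr3:103575886-103575902: TcCtGaACCctGGACAG
The Syn1 sequence differs from the motif at 1 named letter and the other two at 3. These are matches of letters in a window, not measured binding sites.

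Most SNAREs of general trafficking changed by less than 2-fold. Of the syntaxins of the Golgi and endosomes, Stx6 (-0.69), Stx7 (-0.48), Stx12 (-0.24) and the autophagosomal Stx17 (-0.27) were lower in cerebellum on the log2 scale with adjusted p-values under 0.05, and Stx5a (0.30), Stx8 (0.36), Stx16 (0.57) and Stx18 (0.47) were higher, all by less than 2-fold. For Stx18, 12.5% of the exon bases lie in the highly expressed Nsg1 on the other strand. Stx12, the highest syntaxin of E13.5 brain, had 160.3, 151 and 159.9 CPM there and 136, 130.4 and 132 in cerebellum. Vamp4, of the trans-Golgi network (1.08), and Vamp8, of late endosomes (1.95), were the 2 called higher. Vamp3, the cellubrevin of recycling endosomes, had 41.8, 45.7 and 43.7 CPM in embryonic brain and 45.2, 45.6 and 43.6 in cerebellum, and its groups overlapped (log2 0.04, 95% interval -0.06 to 0.14). Snap23, the SNAP-25 relative of non-neuronal cells, was lower in cerebellum (24.9, 25.1 and 25.3 against 13.8, 14.4 and 14.7 CPM, log2 -0.82 ± 0.059), as was Snap29 (-0.78), and Snap47 was higher (152, 141 and 142 against 214, 205 and 209 CPM, 0.53). Snap23 passed 2-fold only when libraries were scaled by total counts (-1.03).

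Members outside both groups included the plasma membrane syntaxins and Snap91. Stx3 (2.03) and Stx4a (1.75) were called higher in cerebellum, while Stx2 (-0.61) was lower without reaching 2-fold. Stx11, a syntaxin of immune cells, fell (-2.22 ± 0.34) but never exceeded 0.878 CPM. Snap91 encodes the clathrin assembly protein AP180 and, in spite of its symbol, no SNARE, and it rose from 179, 155 and 155 to 441, 433 and 437 CPM (1.42 ± 0.053). Vamp5, a form of muscle, had at most 3.49 CPM and a log2 fold change of -0.05 (95% interval -0.40 to 0.30).

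Ratios between the counts of 2 paralogs in the same library do not depend on how libraries are scaled. For 7 pairs the mean log2 ratio was compared between the 3 Wiz +/+ cerebellums and the 5 Wiz +/+ embryonic brains of both sexes with a two-sided exact permutation test. All 7 differed with an exact p of 0.0357 (0.0357 also when adjusted over the 7 pairs), the smallest p that 3 against 5 samples can give, since no cerebellum overlapped with any brain. Snap23/Snap25 showed the largest shift of the 7, from -2.09 ± 0.15 (SD, n = 5) to -7.29 ± 0.023 (n = 3), a 37.0-fold change of the ratio. Per kb of exon, Snap23 stood at 0.373 of the level of Snap25 in embryonic brain and at 0.0101 in cerebellum. Syt2/Syt1 went from -3.70 ± 0.35 to 0.25 ± 0.038, so that Syt2 passed Syt1, with a length-scaled ratio of 0.0840 in embryonic brain and 1.3 in cerebellum. Cplx1/Cplx2 crossed per kb only, from 0.531 to 1.72, while its log2 count ratio rose from -2.08 ± 0.23 to -0.39 ± 0.057 and stayed below 0.

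In every pair but Syt2/Syt1 and Cplx1/Cplx2 the paralog named first was the lower per kb in both tissues. Vamp1 remained the lesser partner of Vamp2, although the log2 count ratio rose from -3.69 ± 0.11 to -1.34 ± 0.048. Sv2b/Sv2a rose from -3.19 ± 0.21 to -1.03 ± 0.076 and Syn2/Syn1 from -1.01 ± 0.17 to 0.16 ± 0.057. Syn3/Syn1 fell from -2.25 ± 0.14 to -4.75 ± 0.054. Syn2 passed Syn1 in counts but not per kb, where it stood at 0.523 of its level in cerebellum.

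**Figure D3:**
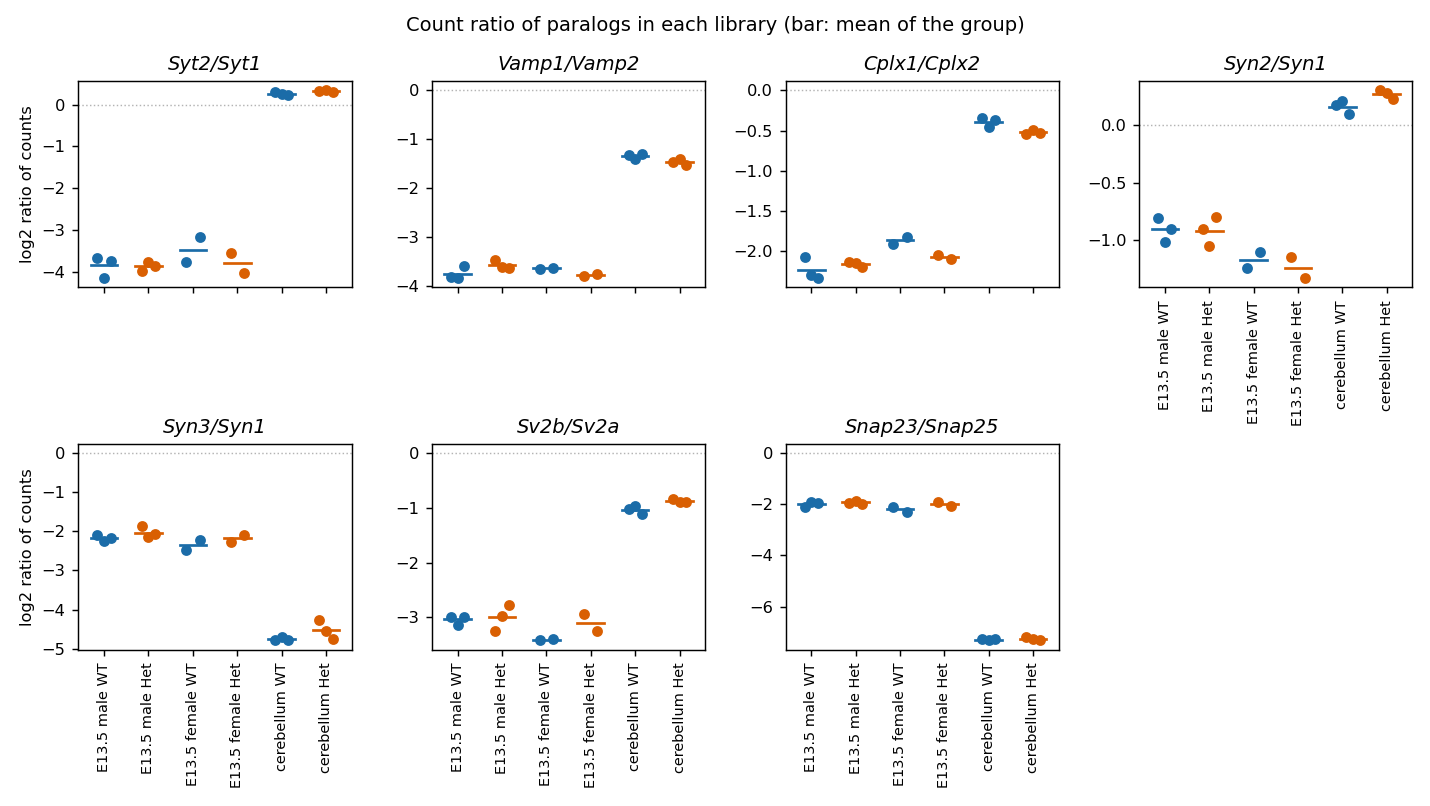
Log2 ratio of the counts of 2 paralogs in each of the 16 libraries for 7 pairs, by tissue, sex and genotype (blue, Wiz +/+, orange, Wiz MommeD30/+), with a bar at the mean of each group and a dotted line at equal counts. In every pair the 6 cerebellums are separate from the 10 embryonic brains, and Snap23/Snap25 moves furthest, with means of -2.09 and -7.29 over the 5 Wiz +/+ brains and the 3 Wiz +/+ cerebellums.

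Other genes of the release pathway, a list of 53 that work with the members, were examined in the same fit. Of these, 33 were called higher in cerebellum and 7 lower (22.6% and 21.5% of all genes), with a median log2 fold change of 1.38. The SNARE-recycling ATPase Nsf (2.54), the priming factor Unc13c (4.96) and Slc17a7, a vesicular glutamate transporter of granule cells (5.31), were among those that rose. Slc17a7 is also counted among the granule cell markers above. Among those that fell were the transporters Slc18a3 for acetylcholine (-5.90) and Slc18a2 for monoamines (-2.83), together with the other 2 glutamate transporters Slc17a6 (-2.35) and Slc17a8 (-3.65). General neuronal markers (Tubb3, Dcx, Rbfox3, Map2, Nefl and Snhg11) summed to 5293 to 5566 CPM in Wiz +/+ male brains and 2759.6 to 2903 in cerebellums, lower in each cerebellum. Of the 6, Tubb3, Dcx and Map2 were called lower and Rbfox3 and Snhg11 higher, with a median log2 fold change of -0.34. The part of cell composition in the changes of the members was not tested.

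The effect of Wiz MommeD30/+ was tested in each tissue and sex on its own samples, and a gene was called where its fold change was below 0.7 or above 1.3 and its adjusted p did not exceed 0.05. In male E13.5 brain none of 50 members was called (0.184% of all genes were), and DESeq2 called none either. The smallest adjusted p of edgeR's quasi-likelihood test was 0.304. At an unadjusted p of at most 0.05 there were 7 (8.45% of all genes). These 7 became 2 without the first Wiz +/+ or the first heterozygous brain and 3 without the second Wiz +/+. They became 13 without the third Wiz +/+ and 12 without the third heterozygous brain. The share of all genes with a brain left out was not computed, so these counts have no background beside them. Most differences were small and pointed down: 38 of 50 members had a log2 fold change below 0, against 50% of all genes, and the median was -0.066 against 0.000. In the fusion core 14 of 16 lay below 0 (median -0.12), and in the trafficking SNAREs 9 of 14 (median -0.015). Without the first Wiz +/+ brain, 33 members and 11 of the fusion core lay below 0. Leaving out single brains gave 33 to 40 members and 11 to 15 core genes below 0. Members are measured in the same few brains and can move together. Counts of their directions, here and below, are therefore not independent observations and were not tested. Over the 16 core genes the 95% intervals reached from -0.43 (Syt2) to 0.18 (Sv2b) on the log2 scale.

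Among the members with the smallest p in male brain were Cplx2, Syt3, Vamp2 and Syt6. Cplx2 had 174, 176 and 167 CPM in Wiz +/+ and 143, 147 and 166 in heterozygous brains (log2 -0.18 ± 0.051, adjusted p = 0.304). The adjusted p of Cplx2 was 0.0192 (-0.25) without the third heterozygous brain and 0.00898 (-0.18) without the filter on low counts, and its fold change stayed within 0.7 to 1.3. All 3 heterozygous brains were below all 3 Wiz +/+ brains. This was so for 2 members, Cplx2 and Syt11, and groups without overlap in either direction made up 12.4% of all genes. Vamp2 had 215, 216 and 198 against 181, 195 and 203 CPM (-0.12 ± 0.047, adjusted p = 0.526). For Vamp2 the genotypes overlapped. For Syt3, a synaptotagmin of receptor recycling and fast recovery, the values were 17.8, 16.9 and 12.6 against 11.9, 11.7 and 14.1 CPM (-0.33 ± 0.12, adjusted p = 0.487), and for Syt6 35.5, 29.9 and 30.6 against 26.7, 28.96 and 30.2 (-0.18 ± 0.069, adjusted p = 0.526). In these 2 genes too the lowest Wiz +/+ brain lay within the heterozygous range. The adjusted p of Syt3 was 0.0241 without the filter on low counts. Without the first Wiz +/+ brain the log2 fold change was -0.20 for Syt3 and -0.083 for Syt6, and without the first heterozygous brain it was -0.073 for Vamp2.

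In female E13.5 brain, with 2 brains of each genotype, none of 51 members was called by edgeR or DESeq2 (0.111% of all genes by edgeR). At an unadjusted p of at most 0.05 there were 12 (6.4% of all genes), and the smallest adjusted p was 0.773. These 12 became 21 without the first and 3 without the second Wiz +/+ brain, and 4 without the first heterozygous brain. Here too the share of all genes with a brain left out was not computed. As in males the differences leaned down, with 40 of 51 members below 0 against 50% of all genes and a median of -0.13 against 0.000. Again 14 of 16 fusion core genes lay below 0 (median -0.17), while the trafficking SNAREs had 8 of 14 below 0 (median -0.004). Leaving out single brains gave 35 to 44 members and 12 to 15 core genes below 0. Every one of the 16 tested synaptotagmins lay below 0, from -0.51 to -0.014. The groups did not overlap for 24 members, against 36% of all genes.

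Syt16 had 36.3 and 39.9 CPM in Wiz +/+ female brains and 30.8 and 31.7 in heterozygous ones (log2 -0.29 ± 0.073, adjusted p = 0.773). Snap47 had 166 and 175 against 151 and 150.1 CPM (-0.18 ± 0.052), and Snap91 had 165 and 182 against 146 and 155 (-0.20 ± 0.065). Both heterozygous brains were below both Wiz +/+ brains in each of these genes. Syn1 had 88.8 and 91.7 against 81.5 and 81.1 CPM (-0.15 ± 0.05) and was also lower in both heterozygous brains. All of these had an adjusted p of 0.773. Syt2, with 11.3 and 17.6 against 11.7 and 9.10 CPM, overlapped (-0.47 ± 0.21, adjusted p = 0.787), and it was called only when the first Wiz +/+ brain was left out (log2 -0.76, adjusted p = 0.0163), so that 1 brain decides that value. It was named after its values were seen.

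The cell type markers of the same embryonic brains were summed. The 7 neural progenitor markers summed to 1669.5 to 1932 CPM in Wiz +/+ female brains and 2057 to 2125 in heterozygous ones (median log2 fold change 0.27), and to 1860.3 to 2099 and 2045 to 2141 CPM in males (median 0.076). The 6 general neuronal markers summed to 5458 to 5909 against 5160.2 to 5589.8 CPM in females and 5293 to 5566 against 5360.1 to 5463 in males. The 3 forebrain markers, which depend on how much forebrain a sample holds, summed to 124 to 167 CPM in Wiz +/+ and 169 to 209 in heterozygous female brains (median log2 fold change 0.41, 2 of 3 at an unadjusted p of at most 0.05). In males they summed to 254 to 299 and 189 to 293 CPM, with a median in the other direction (-0.29, 1 of 3). At an unadjusted p of at most 0.05 there were 4 of 7 progenitor markers in females and 2 of 7 in males. Of the 6 general neuronal markers there were 0 in females and 1 in males. Over all genes the share was 6.4% in female and 8.45% in male brain. No marker of these 3 lists was called in either sex or stood at 0. Their part in the lower levels of the members was not tested.

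All 10 embryonic brains were also fitted together with sex as a covariate. In this fit 43 of 51 members lay below 0 (50.3% of all genes did), with a median of -0.095 and -0.13 for the fusion core. It holds the same brains as the comparisons by sex, so this count is not separate from theirs. None was called (0.346% of all genes were). At an unadjusted p of at most 0.05 there were 18 members, against 11.8% of all genes. Among the smallest adjusted p-values by edgeR were those of Syt16 (log2 -0.20 ± 0.049, adjusted p = 0.132) and Syn1 (-0.14 ± 0.036, 0.164). The 95% intervals of these 2 were -0.31 to -0.09 and -0.21 to -0.06 on the log2 scale.

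In adult cerebellum 1 of 49 tested members was called, Syt14, against 0.832% of all genes. At an adjusted p of at most 0.05 without regard to size there were 4 (5.26% of all genes): Vamp1 fell, and Syt14, Syt4 and Sv2b rose. For each of the 4 the adjusted p rose above 0.05 when the third Wiz +/+ cerebellum was left out. The median log2 fold change of the members was -0.011, and 29 of 49 lay below 0 (51.3% of all genes). The fusion core had 9 of 16 below 0 and a median of -0.014. At an unadjusted p of at most 0.05 there were 10 (19.9% of all genes). The groups did not overlap for 11 members, against 24% of all genes.

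Syt14 (ENSMUSG00000016200, chr1:192891233-193035775, minus strand), a synaptotagmin without calcium binding, had 5.13, 4.78 and 4.39 CPM in Wiz +/+ cerebellums and 6.78, 6.48 and 5.79 in heterozygous ones, with no overlap (log2 0.42 ± 0.11, adjusted p = 0.0316). The call was lost with DESeq2 (adjusted p = 0.079) and when the second or the third Wiz +/+ or the first or second heterozygous cerebellum was left out (adjusted p from 0.0531 to 0.154). Vamp1 had 336, 318 and 339 against 293, 313 and 290.1 CPM, again with no overlap (-0.15 ± 0.033, adjusted p = 0.0156). Syt4, a modulator of dense core vesicle release, had 284, 288 and 282 against 304, 328 and 298 (0.13 ± 0.033, adjusted p = 0.0315), and Sv2b 332, 337 and 306 against 352, 351 and 356 (0.12 ± 0.033, adjusted p = 0.0392). Fold changes of these 3 were 0.903, 1.09 and 1.09, and for each the genotypes did not overlap. All 3 also lost an adjusted p of at most 0.05 without the first or the third Wiz +/+ or the first heterozygous cerebellum, as did Syt4 and Sv2b without the second and Vamp1 and Sv2b without the third heterozygous one. Without the third Wiz +/+ cerebellum it was 0.118 for Vamp1, 0.149 for Syt4 and 0.236 for Sv2b. Syt10, a synaptotagmin of growth factor secretion, had 8.92, 9.68 and 9.03 against 11.1, 11.7 and 10.6 CPM (0.28 ± 0.079) and just missed the threshold (adjusted p = 0.0508, and from 0.0367 to 0.175 over the alternatives).

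Erythroid markers (Hbb-bs, Hba-a1 and Alas2, 3 of 3 called) were also higher in heterozygous cerebellum, at 279.7 to 505 CPM summed against 154 to 240.0. The 4 Purkinje cell markers summed to 6338 to 6789 CPM in Wiz +/+ and 6655 to 6821 in heterozygous cerebellum and the 6 granule cell markers to 5827 to 5937 and 5739 to 5955 CPM, with none called. The 7 neural progenitor markers had a median log2 fold change of -0.32, also with none called. These calls include the fold limit. Without it, edgeR's smallest adjusted p was 0.0102 among progenitor and 0.0313 among granule cell markers. It was 0.0101 for oligodendrocyte, 0.0125 for astrocyte and Bergmann glia, 0.0032 for general neuronal and 0.0356 for endothelial markers. In the Purkinje cell, microglia, choroid plexus, forebrain and pituitary lists it was above 0.05. The part of any of these in the changes of Syt14, Vamp1, Syt4 and Sv2b was not tested.

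**Figure D4:**
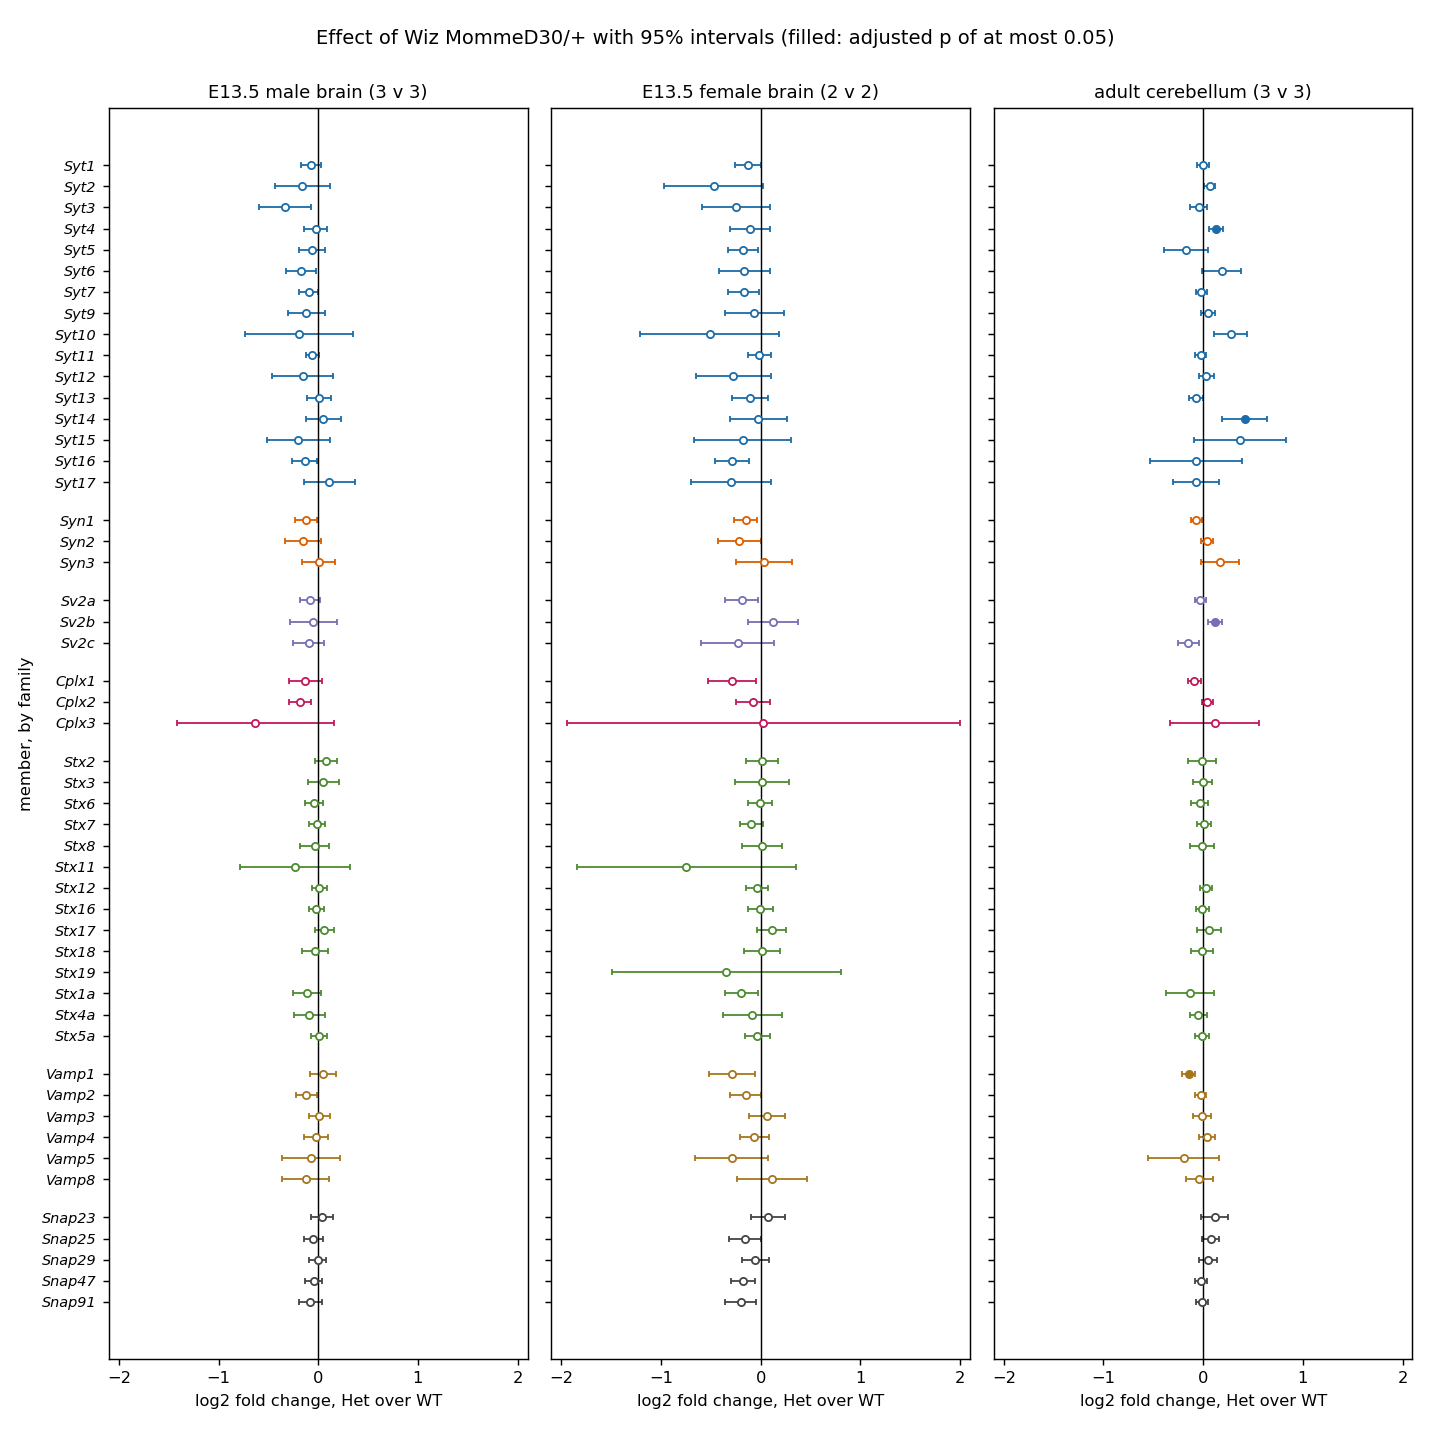
Log2 fold change of all tested members but 1, Wiz MommeD30/+ over Wiz +/+, with 95% intervals, in male E13.5 brain (3 against 3), female E13.5 brain (2 against 2) and adult male cerebellum (3 against 3), by family. Filled points have an adjusted p of at most 0.05, which only Syt4, Syt14, Sv2b and Vamp1 in cerebellum do, and in embryonic brain 37 of 49 points (male) and 39 of 50 (female) lie left of 0.

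Whether the effect of genotype differed between tissues was tested by an interaction term over the 12 male samples. No member was called (0.26% of all genes), 7 had an unadjusted p of at most 0.05 (9.72% of all genes), and DESeq2 called 1, Cplx2. In the edgeR fit the effect on Cplx2 was higher by 0.22 ± 0.061 (log2) in cerebellum than in brain, with an adjusted p of 0.182. The adjusted p was 0.0479 by DESeq2, 0.0205 without the filter on low counts and 0.0165 without the third heterozygous male brain. Cplx2 had 918, 921 and 893 CPM in Wiz +/+ and 915, 948 and 944 in heterozygous cerebellum. Vamp1 came next (-0.20 ± 0.064, adjusted p = 0.294).

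Between the sexes no difference in effect passed the threshold (0 of 51 called by edgeR and by DESeq2, against 0% of all genes by edgeR), with 2 at an unadjusted p of at most 0.05 (3.98% of all genes). These were Vamp1 and Snap47. Vamp1 had 15.4, 15.2 and 16.6 CPM in Wiz +/+ and 16.3, 15.9 and 16.6 in heterozygous male brains, against 16.4 and 18.5 in Wiz +/+ and 13.7 and 14.9 in heterozygous female brains, a difference of the log2 effects of -0.34 ± 0.10 (adjusted p = 0.985).

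Paralog ratios differed little between genotypes beside their shift between tissues. In cerebellum the groups did not overlap for 5 of 7 pairs. The share among ratios of other gene pairs was not computed. For the CPM of single genes, which is another measure, it was 24%. Mean log2 count ratios went from 0.25 ± 0.038 to 0.32 ± 0.021 (SD) for Syt2/Syt1, from -1.34 ± 0.048 to -1.46 ± 0.066 for Vamp1/Vamp2 and from -0.39 ± 0.057 to -0.52 ± 0.022 for Cplx1/Cplx2, Wiz +/+ first. Syn2/Syn1 went from 0.16 ± 0.057 to 0.27 ± 0.041 and Sv2b/Sv2a from -1.03 ± 0.076 to -0.88 ± 0.029. Each had an exact permutation p of 0.1, the smallest that 3 against 3 can give (0.42 adjusted over the 21 ratios compared), so none can pass 0.05. No pair was without overlap in male brain, and 4 were in female brain, where 2 against 2 can go no lower than 0.33. Single genes without overlap in CPM made up 12.4% in male and 36% in female brain.

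Of the 53 other pathway genes none was called for genotype in any of the 3 comparisons, by the thresholds above. At an unadjusted p of at most 0.05 there were 9 of 53 in male brain (8.45% of all genes), 13 of 53 in female brain (6.4%) and 21 of 51 tested in cerebellum (19.9%). The vesicle protein Synpr, with the smallest p of the list in cerebellum, rose (log2 fold change 0.32, adjusted p = 1.3e-04). The priming factor Unc13a fell (log2 fold change -0.23, adjusted p = 0.00114). Doc2b, a calcium sensor related to the synaptotagmins by its C2 domains and named here after its values were seen, was the 1 gene of this list called in the interaction of genotype with tissue (log2 0.50, adjusted p = 0.0227). It had 15.6, 13.8 and 13.1 CPM in Wiz +/+ and 10.8, 9.64 and 11.9 in heterozygous male brains, 13.6 and 13.6 against 10.6 and 10.7 in female brains, and 148, 148 and 141 against 157, 153 and 152 in cerebellums. The genotypes did not overlap in any of the 3 sets of samples. Over all genes, such a lack of overlap was found for 36% (female brain), 24% (cerebellum) and 12.4% (male brain). The direction in cerebellum was opposite to that in embryonic brain. Doc2b was picked by the interaction, in which 0.26% of all genes were called. That choice favours genes whose effect differs between cerebellum and male brain, so the opposite direction is not a separate result.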

How the data were processed

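Poly(A) RNA was sequenced, and the authors deposited counts, whole and not normalised, for 41388 Ensembl genes in each of 16 libraries. The submitters' processing notes name TopHat2 2.0.11, HTSeq 0.6.1 and mm10. The counting mode and strand setting are not given in the sources used here. The 3 ChIP-seq samples were not analysed here.

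Gene symbols, biotypes and positions came from GENCODE M21 (GRCm38), which held 40340 of the gene identifiers. An annotated Vamp9 had no row in the files. Counts were scaled by TMM, genes kept by filterByExpr (minimum count 10) and tested by edgeR 4.0.16 quasi-likelihood in R 4.3.3, with Benjamini-Hochberg adjustment over all genes kept. The main comparisons were tried on simulated counts with 200 genes changed, by edgeR and by DESeq2 with this scaling and filter unaltered. Fits with other scalings or filters, with a block, or of both sexes with sex as a covariate alone were not simulated. Levels are CPM with TMM over the 16 libraries, or CPM per kb of merged exons. SE is the log2 fold change divided by the square root of the F statistic. Paralog ratios used counts as they are (0.5 added as an alternative) and two-sided exact permutation tests (scipy 1.17.1). DESeq2 1.42.0, other scalings and filters, fold limits, a replicate block and leaving out each library were alternatives. Same-numbered samples did not deviate together (correlations from -0.16 to 0.0085), so the numbers were not taken as pairs.

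The members, gene lists and tests were chosen with earlier results of these data known. Genes given by sample were, for genotype, the called members or the 5 with the smallest p. Between tissues they were each family's highest members, its largest rise and fall, and both genes of each pair. Syt6, Syt10 and Snap91, picked for genotype, are given by sample between tissues too. Values by sample are also given, outside this rule, for Syt5, Syt12, Stx4a, Vamp3 and Doc2b, which is not a member. Results on some genes are not reported here. Motif matches with letters different were searched after results had been seen. Depth was 16386029 to 50459755 counts. Each sample was 1 animal, so p-values measure the spread between animals.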

Additional observations from a re-analysis of the deposited data

How the results depend on the processing

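Of 457 values of single members under an alternative setting, 444 kept their direction and side of the threshold. Of the rest, 7 passed it only under the alternative, 6 only in the fit reported, and 0 changed direction. The threshold includes the fold limit, so a member well inside or outside that limit keeps its side almost whatever its p. Cplx2 in male brain kept its side in all 14 alternatives, while edgeR's adjusted p ran from 0.00898 to 0.999. Of 409 other values under an alternative (counts of members and paralog ratios), 324 kept their side of the threshold, stayed within 1.5 times or moved by less than 1 SD. For 63, all paralog ratios between tissues, p rose above 0.05, and 22 counts moved by over 1.5 times. In male brain no setting called a member. In female brain leaving out single brains gave 0 to 1 called members. In cerebellum the count of 1 became 0 with the DESeq2 Wald test, 4 without a fold limit, and 0 to 1 when single cerebellums were left out. For the interaction of genotype with tissue, 1 member was called with the DESeq2 Wald test and 1 without the filter on low counts, and 0 to 1 when single samples were left out. Between tissues, fold limits of 0.7 and 1.3 gave 12 members called lower in place of 6. Over all genes these limits gave 5544 called lower in place of 3618. Leaving out single samples gave 25 members called higher and 6 to 7 lower. Over all genes it gave 3881 to 3960 called higher and 3640 to 3779 lower. The cause of these changes was not tested, apart from the limits themselves.

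With male brains alone the difference between tissues in the log2 paralog ratio was 4.10 for Syt2/Syt1, 2.40 for Vamp1/Vamp2, 1.84 for Cplx1/Cplx2, 1.06 for Syn2/Syn1, -2.57 for Syn3/Syn1, 2.00 for Sv2b/Sv2a and -5.29 for Snap23/Snap25, each with an exact permutation p of 0.1, the smallest for 3 against 3. Leaving out single samples gave 3.84 to 4.08, 2.32 to 2.38, 1.63 to 1.76, 1.11 to 1.22, -2.56 to -2.47, 2.09 to 2.20 and -5.27 to -5.17 in the same order, with exact p-values from 0.0571 to 0.0952, since fewer samples cannot give a smaller p.

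With the replicate number as a block, the members called for genotype numbered 0 in brains of either sex and 1 in cerebellum. They numbered 25 higher and 6 lower between tissues, and 0 for both interactions. The block changed none of these counts. The numbers do not pair the samples: correlations of deviations between same-numbered samples ran from -0.160 to -0.0642 in male brain, were -0.0646 in female brain and ran from -0.0847 to -0.0220 in cerebellum.

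The limits of the data are few animals, 2 against 2 in female brain, and a small second male Wiz +/+ library. Tissue, age and any library batch that differed with them cannot be told apart. Syt4, Syt12, Syn3, Stx18 and Snap47 share 11.6% to 19.8% of their exon bases with a gene on the opposite strand, and what this does to their counts was not tested. Vamp7 could not be measured.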
